A study of Mus musculus with 8 samples.

Results

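The genes that build and decorate mucin-type O-glycans were examined in the distal colon of mice whose intestinal epithelium expressed human SIGLEC12. Members were chosen by name: every gene whose symbol is Galnt or Galntl followed by a number, every Fut gene with a number, and listed enzymes of core synthesis, chain extension, terminal GalNAc addition and GlcNAc sulfation. This gave 43 genes of the 52143 in the deposited table. RNA came from the colon of 4 Control and 4 SiglecXII samples. SiglecXII mice carried human SIGLEC12 behind a floxed stop in the ROSA26 locus and a tamoxifen-inducible Cre driven by the Villin1 promoter (SIGLEC12-Villin1-Cre-ERT), so that the transgene is switched on in the epithelium of both the small and the large intestine. All mice were female. Control mice carried the Cre alone (Villin1-Cre-ERT), and both groups received tamoxifen (10 mg/ml) for 5 days from 8 weeks of age and were harvested 7 days after the last dose, on day 12, without carcinogen or colitis. The transgene itself was not analysed here, so the labels were not checked against it. The labels list 4 samples a group, whereas the design text speaks of 3 mice per condition, and the methods describe 3 technical libraries per sample. No label states that each sample is a separate animal, so the P values measure only the spread between these samples.

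Mucin-type O-glycans are sugar chains on serine and threonine that make up much of the mass of secreted and membrane mucins. A family of polypeptide GalNAc-transferases, the Galnt genes, places the first sugar. Core enzymes then add galactose (core 1) or GlcNAc (core 3), core 2 enzymes add a branch, and the chain is lengthened and capped with fucose, sulfate, sialic acid or a terminal GalNAc. Sialylated ends of such chains are the kind of structure that Siglec proteins, a family of lectins, are known to bind, although Siglec-XII has lost an arginine needed for that binding.

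Promoter sequences were available for 31 of the 43 members, which do not include C1galt1c1 and B4galnt1. Those of 3 genes are shown. They are Gcnt1, the member with the smallest P, C1galt1, the core 1 synthase, and B3gnt7, the member with the highest level. Each line gives the 250 bases upstream of a RefSeq transcription start on GRCm38.p6, read 5′ to 3′ on the strand of the gene. Capitals mark matches to 3 motifs on either strand. The GC box, a site of the widely expressed factor Sp1, was searched as GGGCGG. The TATA box, which places the start of transcription in many tissue-specific genes, was searched as TATAAA. The site of CDX factors, which specify the intestinal epithelium, was searched as TTTATNG. RefSeq gives Gcnt1 3 starts, and the one at the start of the transcript that labels the gene in the deposited table is shown (chr19:17356668-17356917, minus strand), beside C1galt1 (chr6:7844974-7845223, plus strand) and B3gnt7 (chr1:86302971-86303220, plus strand).
Gcnt1: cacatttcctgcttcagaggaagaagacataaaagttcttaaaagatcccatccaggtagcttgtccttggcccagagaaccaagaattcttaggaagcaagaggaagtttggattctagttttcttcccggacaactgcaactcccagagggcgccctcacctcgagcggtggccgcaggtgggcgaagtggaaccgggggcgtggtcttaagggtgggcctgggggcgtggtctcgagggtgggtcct
C1galt1: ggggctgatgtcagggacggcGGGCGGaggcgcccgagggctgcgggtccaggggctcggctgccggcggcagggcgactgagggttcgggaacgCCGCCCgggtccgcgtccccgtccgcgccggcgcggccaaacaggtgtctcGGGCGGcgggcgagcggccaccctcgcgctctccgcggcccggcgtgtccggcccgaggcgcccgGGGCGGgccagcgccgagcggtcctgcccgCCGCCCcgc
B3gnt7: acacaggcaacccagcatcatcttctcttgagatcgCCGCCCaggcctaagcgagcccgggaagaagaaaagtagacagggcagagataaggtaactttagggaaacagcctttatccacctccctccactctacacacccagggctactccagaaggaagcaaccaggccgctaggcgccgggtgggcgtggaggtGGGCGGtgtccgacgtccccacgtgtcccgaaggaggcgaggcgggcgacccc
The window of C1galt1 held 5 GC boxes and 44 CG dinucleotides, that of B3gnt7 2 GC boxes and 16 CG dinucleotides, and that of Gcnt1 none of the motifs and 10 CG dinucleotides. Of the other Gcnt1 starts, the window adjoining the annotated 5′ end of the gene (chr19:17372845-17373094) held 2 TATA boxes, and the remaining one none of the motifs. The median over 32851 mouse promoter windows of the same length was 6 CG dinucleotides. Among these windows 32.7% held a GC box, 12.4% a TATA box and 9.81% a CDX site, and of the 45 windows of member genes 19, 2 and 3 held them. A match is a run of letters and was not read as a bound site.

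Levels are given as TPM, a gene's share of the transcripts in a sample after division by length and scaled to 1000000, so that genes can be compared with each other. Of the 43 members, 31 reached a TPM of 1 in 4 or more of the 8 samples and entered the test, as did 13164 genes in all. Among these 31, Galnt17 reached that level in 6 samples and the other members in all 8. The other 12 members reached it in no sample. Across samples the number of genes at a TPM of at least 1 ran from 12748 to 13715, and the median gene was shifted from the mean of all samples by -0.16 and -0.30 on the log2 scale in SiglecXII 3 and 4, against -0.04 to 0.15 in the other 6. The median difference between the groups over all 13164 genes tested was -0.15, and each difference below is on the deposited log2(TPM + 1) scale without adjustment for this shift and is followed by its standard error (SE) from limma where one is given. Markers fitted the labelled tissue, as all 10 epithelial markers were detected in every sample, with a mean of 9.32 ± 0.19 log2(TPM + 1) in Control (SD, n = 4) and 9.29 ± 0.21 in SiglecXII samples (SD, n = 4).

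No member passed the test between the groups. The smallest adjusted p of the 31 was 0.515 in limma with Benjamini-Hochberg adjustment, against a limit of 0.05 that 0.038% of all genes tested passed. Without adjustment 2 members had a P of at most 0.05, Gcnt1 higher and B4galnt1 lower in SiglecXII samples. These are 3.23% of the members in each direction, beside 1.19% of all genes higher and 7.67% lower. In 2 members, Gcnt1 and C1galt1c1, every SiglecXII sample lay above every Control sample, or 6.45% of the members beside 1.05% of all genes. In no member did every SiglecXII sample lie below every Control sample, which was so in 4.06% of all genes. The median difference of the members was -0.05, with 11 above and 20 below 0, and 26 of the 31 lay within 0.25 of 0. Of all genes tested 2888 were above and 10276 below 0. The balance of the members turned with the scaling. It was 27 above and 4 below 0 after each sample was centred on its median. After quantile normalization it was 25 above and 6 below. The median difference of all genes tested was 0.06 and 0.02 in these 2 settings, and their share above 0 was not counted. Read against the median of all genes on the deposited scale, 27 of the 31 were above it.

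**Figure D1:**
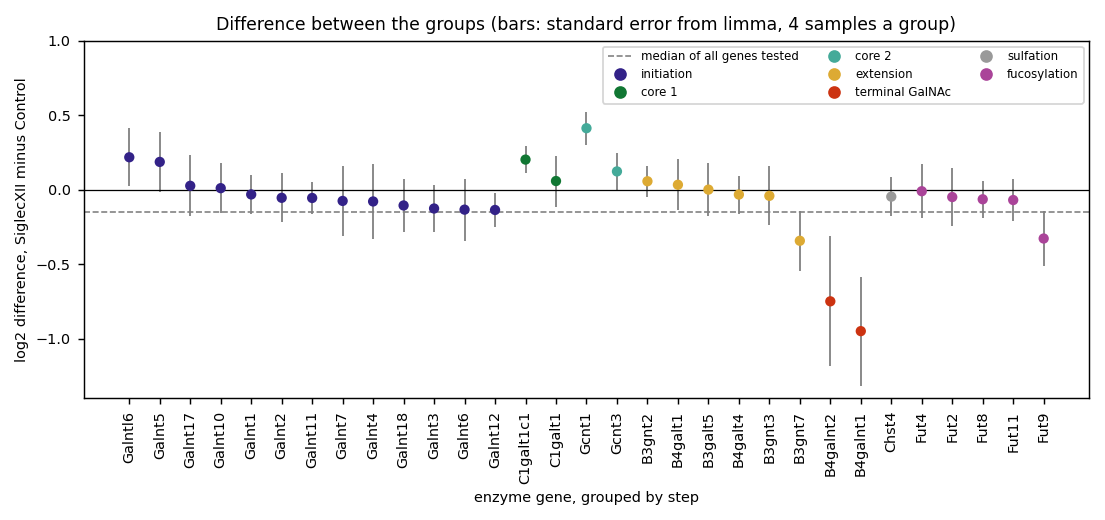
Difference between SiglecXII and Control means on the log2(TPM + 1) scale (y axis) for the 31 members tested, grouped by enzymatic step (x axis, colours), with the standard error from limma as bars and the median of all genes tested as a dashed line at -0.15. Gcnt1 is the highest at 0.41, and B4galnt2 and B4galnt1 are the lowest at -0.75 and -0.95.

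Levels of the members tested ran from 1.31 to 729 TPM in Control. B3gnt7 was the highest at 729 ± 132 TPM (SD, n = 4) and rank 218 of all genes in the table, and its lowest Control sample was above the highest of B3gnt3, the next member. B3gnt3 (128 TPM), B4galt1 (122 TPM) and B3galt5 (114 TPM) followed and overlapped one another, and B3galt5 was again apart from Fut4. From Fut4 (69.7 TPM) down to Gcnt3 (21.0 TPM) each member overlapped its neighbour, so that their order is not settled by these samples. Gcnt3 was apart from Galnt2 (11.6 TPM), and Fut9 (4.46 TPM) from Galnt18 (1.99 TPM). The other neighbours among the members tested overlapped.

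**Figure D2:**
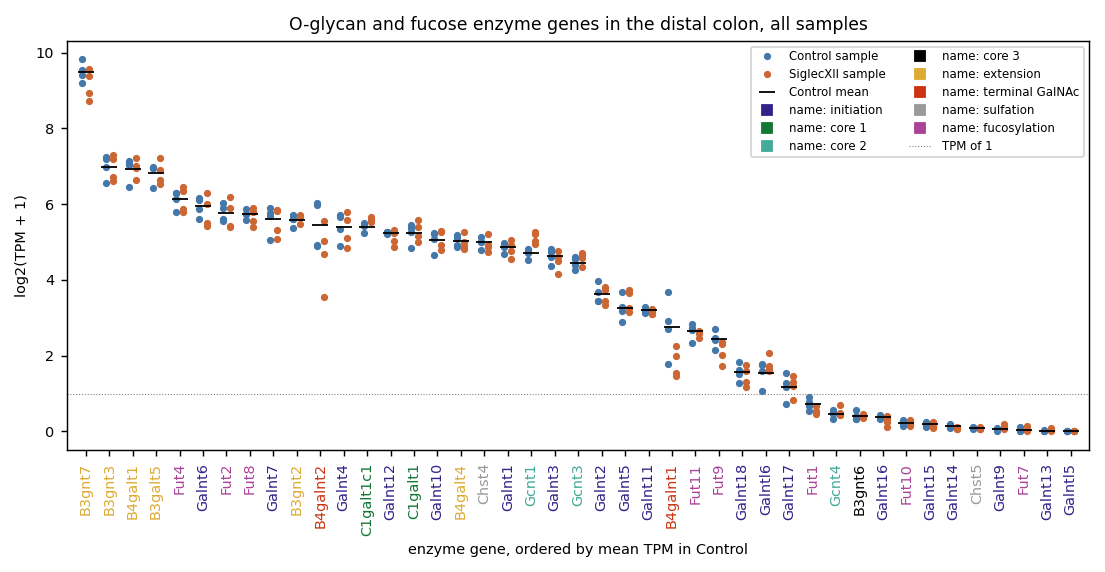
Level of each of the 43 members as log2(TPM + 1) (y axis) in every Control sample (blue) and SiglecXII sample (orange), ordered by mean TPM in Control (x axis), with the Control mean as a bar, a TPM of 1 as a dotted line and names coloured by step. B3gnt7 stands at the top, B3gnt6, the core 3 synthase, lies below a TPM of 1 in all 8 samples, and Galntl5 is listed at 0.

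Chain extension held the 4 highest members. These enzymes lengthen the glycan with alternating galactose and GlcNAc, and all 6 were tested. B3gnt7, a GlcNAc-transferase known for the poly-N-acetyllactosamine chains of keratan sulfate, was at 590, 905, 738 and 682 TPM in Control 1 to 4 and 757, 662, 492 and 420 TPM in SiglecXII 1 to 4. SiglecXII 3 and 4 were below every Control sample and SiglecXII 1 and 2 were among them, so the groups overlapped. The difference was -0.34 (SE 0.200, limma adjusted p = 0.515). It was -0.20 without SiglecXII 4, -0.48 without SiglecXII 1 and -0.02 without both SiglecXII 3 and 4. B3gnt7 shares 11.15% of its windows of 31 bases with Gm28626 on the opposite strand (0.0686 TPM in Control). B3gnt3, which adds GlcNAc to core 1 to start its extension, was at 93.0, 150.0, 146 and 125 TPM in Control 1 to 4 and 155, 144, 104 and 97.2 TPM in SiglecXII 1 to 4. The lowest was Control 1, followed by SiglecXII 4 and 3, and the groups overlapped over nearly their whole range. B4galt1, the main galactosyltransferase of N-acetyllactosamine synthesis, was at 87.1, 132, 141 and 129 TPM in Control and 129, 147, 122 and 99.5 TPM in SiglecXII samples, in the order of their numbers. B3galt5, which makes type 1 chains, was at 84.5, 123, 126 and 122 TPM in Control and 148, 119, 98.7 and 92.2 TPM in SiglecXII samples. Control 1 was the lowest of all 8 samples for both genes. B3gnt2, a further poly-N-acetyllactosamine enzyme, was at 47.5, 48.0, 40.1 and 51.6 TPM in Control and 49.9, 51.5, 43.2 and 49.8 TPM in SiglecXII samples, and it shares 58.4% of its windows of 31 bases with Gm28048 (1.66 TPM in Control), so that reads could be split between them. B4galt4, a galactosyltransferase with a preference for sulfated GlcNAc, ranged from 28.1 to 35.7 TPM in Control and from 27.3 to 37.2 TPM in SiglecXII samples. Apart from B3gnt7, the extension enzymes differed by -0.04 to 0.06 between the groups.

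Core 1 enzymes were both above 0 in their difference, and one of them separated the groups. C1galt1 adds galactose to the first GalNAc, and C1galt1c1 encodes Cosmc, the chaperone that C1galt1 needs to fold. C1galt1c1 (ENSMUSG00000048970, chromosome X, 38630785 to 38635087 on GRCm38) was at 36.6, 44.6, 42.4 and 41.7 TPM in Control 1 to 4 and 50.1, 47.9, 47.0 and 45.2 TPM in SiglecXII 1 to 4. The lowest SiglecXII sample was thus just above the highest Control sample. The difference was 0.20 (SE 0.0920, unadjusted P = 0.0560, limma adjusted p = 0.515). C1galt1 was at 27.6, 42.5, 40.4 and 37.7 TPM in Control and 47.2, 41.3, 34.8 and 31 TPM in SiglecXII samples, and its groups overlapped. Its difference was 0.06 (SE 0.171, limma adjusted p = 0.875).

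Core 2 branching held the member with the smallest P. Gcnt1 (ENSMUSG00000038843, chromosome 19, 17326141 to 17372844 on GRCm38) encodes the leukocyte type of core 2 enzyme, which adds the branching GlcNAc to core 1. Its TPM was 22.1, 27.1, 25.0 and 26.0 in Control 1 to 4 and 31.5, 36.1, 29.8 and 37.3 in SiglecXII 1 to 4. All 4 SiglecXII samples were above all 4 Control samples, including SiglecXII 3 and 4, the samples with the lowest median gene. On the log2 scale the difference was 0.41 (standard error 0.112), a fold of 1.33 in TPM + 1, with unadjusted P = 0.00506 and a limma adjusted p = 0.515. Over the alternatives tried the difference lay between 0.36 and 0.63 and its adjusted p between 0.267 and 0.990. Gcnt3, the mucin type of core 2 enzyme, which can also branch core 3 into core 4, was at 18.1, 22.5, 23.3 and 19.95 TPM in Control and 24.3, 25.1, 19.4 and 22.8 TPM in SiglecXII samples. SiglecXII 3 lay inside the range of Control, and the difference was 0.12 (SE 0.124, limma adjusted p = 0.641). Gcnt4, the other core 2 enzyme, was between 0.248 and 0.613 TPM in all 8 samples and was not tested. Of 10 goblet cell markers, 6 were higher and 4 lower in SiglecXII samples, 1 of them (Spink4) at an unadjusted P of at most 0.05. Their summed TPM was 11411 to 13486.5 in Control and 13013 to 17238 in SiglecXII samples. Zg16 (mean 5064 TPM in Control and 6295 TPM in SiglecXII samples) and Tff3 (3004 and 3485 TPM) made up much of this sum. The 4 lower markers were Muc2 (93.4 and 77.1 TPM), Fcgbp (541 and 530 TPM), Creb3l1 (129 and 111 TPM) and Spdef (25.7 and 20.7 TPM). The part of goblet cell markers in the values of Gcnt1 and C1galt1c1 was not tested. That the differences of Gcnt1 and Gcnt3 differ from each other was not tested.

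**Figure D3:**
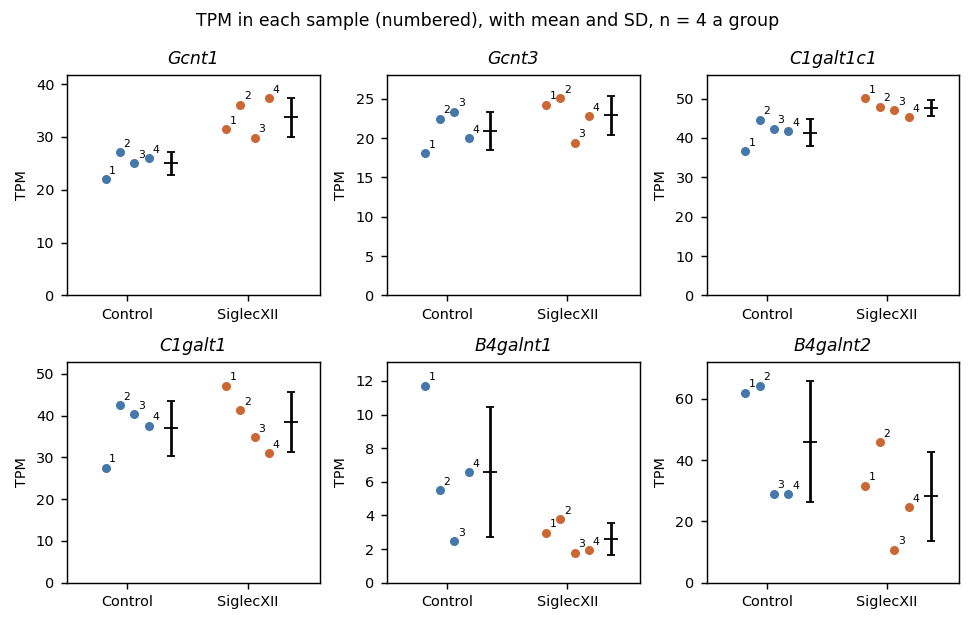
TPM (y axis, from 0) of Gcnt1, Gcnt3, C1galt1c1, C1galt1, B4galnt1 and B4galnt2 in each numbered Control (blue) and SiglecXII (orange) sample, with the mean and SD of each group in black (n = 4). For Gcnt1 and C1galt1c1 every SiglecXII point is above every Control point, and for the other 4 genes the groups overlap.

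The core 3 synthase was below 1 TPM in all 8 samples. B3gnt6 adds GlcNAc to the first GalNAc and thereby makes core 3, a structure known from the colon. It was at 0.263, 0.315, 0.487 and 0.252 TPM in Control and 0.279, 0.317, 0.306 and 0.369 TPM in SiglecXII samples, and was not tested. It shares less than 2% of its windows of 31 bases with any other annotated gene, so division of its reads with a similar gene does not show in the annotation. C1galt1 was 82.9 to 169 times higher in TPM within a sample. The log2 ratio of B3gnt6 to C1galt1 was -6.85 ± 0.38 in Control (SD, n = 4) and -6.91 ± 0.42 in SiglecXII samples (SD, n = 4). A difference of -0.07 had p = 0.8286 in a two-sided exact permutation test, and 0.914 after adjustment over the 2 ratios compared. The smallest p that 4 samples against 4 allow is 0.0286.

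The 2 enzymes that add a terminal GalNAc had the 2 lowest differences of all members. B4galnt1 (ENSMUSG00000006731, chromosome 10, 127165225 to 127172330 on GRCm38), known as the GM2 and GD2 synthase of gangliosides, was at 11.7, 5.51, 2.45 and 6.56 TPM in Control 1 to 4 and 2.98, 3.78, 1.78 and 1.92 TPM in SiglecXII 1 to 4. Control 1 was far above the rest and Control 3 lay among the SiglecXII samples. The difference was -0.95 (SE 0.366, unadjusted P = 0.0290, limma adjusted p = 0.515). The unadjusted P was 0.0674 without Control 1, 0.0614 without Control 4, 0.0728 without SiglecXII 3 and 0.0686 without SiglecXII 4, in limma in each case. Without SiglecXII 1, SiglecXII 2, Control 2 or Control 3 it stayed at most 0.05, and without Control 3 it was 0.00213 and the groups no longer overlapped, as in 8.99% of all genes below Control there. Without both SiglecXII 3 and 4 the difference was -0.64 and the unadjusted P 0.212 in limma, and on all samples it was 0.0706 with samples centred on their medians and 0.0639 with quantile normalization. Slc26a10 overlaps B4galnt1 on the opposite strand over 19.9% of its windows of 31 bases, and was itself at 0.0676 TPM in Control. B4galnt2, which makes the Sda antigen of the gut epithelium, was at 62, 64.3, 29.1 and 28.8 TPM in Control and 31.6, 45.7, 10.8 and 24.6 TPM in SiglecXII samples. Control held a high pair and a low pair, and the 2 groups overlapped. The difference was -0.75 with a standard error of 0.437, the largest among the members (adjusted p = 0.515 from limma). It was -0.37 without SiglecXII 3, -1.03 without SiglecXII 2 and -0.17 without both SiglecXII 3 and 4. B4galnt2 shares 12.17% of its windows of 31 bases with Gm11534 on the opposite strand. Gm11534 was at 1.10 TPM in Control and 0.524 TPM in SiglecXII samples.

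Markers of several cell types outside the epithelium were also lower in SiglecXII samples. Over all genes tested 10276 of 13164 had a mean below that of Control, and 7.67% were lower at an unadjusted P of at most 0.05. All 8 smooth muscle markers were lower, 4 of them (Des, Synm, Myh11 and Cnn1) at an unadjusted P of at most 0.05, and their summed TPM was 632 to 1016 in Control and 308 to 659 in SiglecXII samples. Of 8 immune markers 3 were tested, all lower, and the summed TPM of the 8 was 17.5 to 49.7 in Control and 3.71 to 7.82 in SiglecXII samples. S100a8 made up much of this sum, with a mean of 21.2 TPM in Control and 2.36 TPM in SiglecXII samples. Cd3e differed little, at 0.414 and 0.366 TPM. The summed TPM of 5 endothelial markers was 4.26 to 5.30 in Control and 2.07 to 3.49 in SiglecXII samples. The summed TPM of the fibroblast list overlapped between the groups, at 12.7 to 40.4 TPM in Control and 16.7 to 73.9 TPM in SiglecXII samples, with 5 of 5 tested markers below 0 in their difference and none past that P. Of 2 adipocyte markers tested 1 was higher and 1 lower. Lower values were not limited to cells outside the epithelium, as all 5 tested markers of tuft and enteroendocrine cells were lower, 0 of them past that P. Of 10 absorptive colonocyte markers 4 were higher and 6 lower, and all 3 tested markers of enteric neurons and glia were lower. In both lists 0 were past that P. None of these markers was at 0 in all samples. Their part in the lower values of B4galnt1 and B4galnt2 was not tested. In bulk tissue fewer cells of a type and less RNA per cell cannot be told apart.

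Initiation was spread over many enzymes with no group difference past the test. As a family the Galnt genes transfer GalNAc to the mucin protein, with overlapping choices of acceptor site. Whether each of the 19 genes does so was not examined, and 13 of them were tested for a group difference. The summed TPM of all 19 was 308 ± 42.8 in Control (SD, n = 4) and 295 ± 62.7 in SiglecXII samples (SD, n = 4). Galnt6 held 19.8% of this sum in Control and 19.0% in SiglecXII samples, Galnt7 15.6% and 15.5%, Galnt4 13.6% and 13.5%, and Galnt12 12.2% and 11.6%. These 4 genes held from 57.4% to 62.8% of the sum in each sample, so no single enzyme held most of it. Galnt10 (10.5% and 11.2%), Galnt1 (9.17% and 9.47%) and Galnt3 (7.80% and 7.53%) followed.

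**Figure D4:**
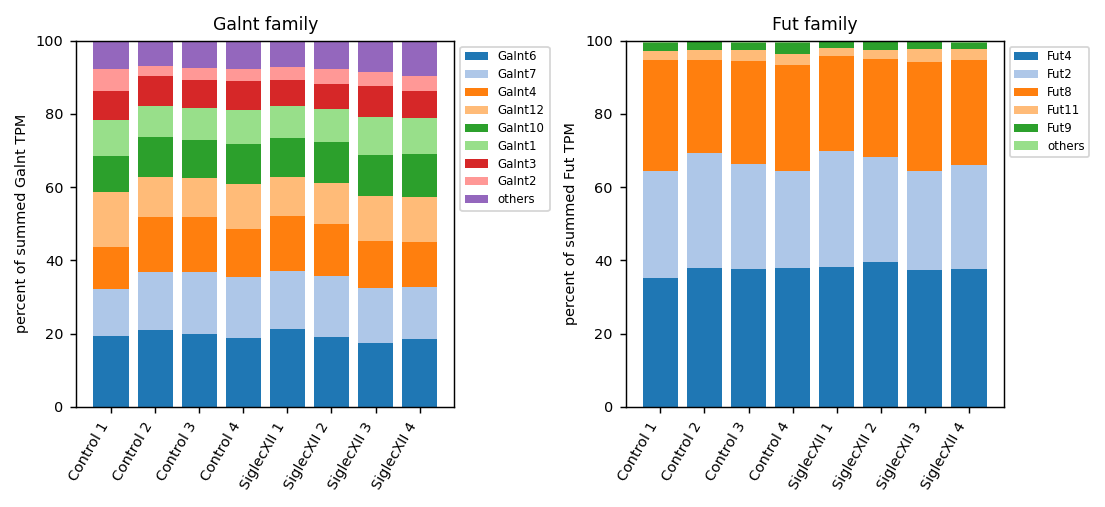
Share of the summed TPM (y axis, percent) of the 19 Galnt genes (left) and the 8 Fut genes (right) taken by each gene in each of the 8 samples (x axis). The stacks look alike in both groups, with Galnt6 at 17.3% to 21.3% of the Galnt sum and Fut4 at 35.1% to 39.6% of the Fut sum.

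Galnt6 was at 48.2, 70.4, 68.1 and 57.6 TPM in Control 1 to 4 and 77.3, 63, 44.6 and 41.9 TPM in SiglecXII 1 to 4. It shares 9.34% of its windows of 31 bases with Galnt6os on the opposite strand (1.02 TPM in Control). Galnt7, which prefers peptides that already carry GalNAc, was at 32.0, 53.6, 58.4 and 50.3 TPM in Control and 57, 55.8, 38.9 and 32.8 TPM in SiglecXII samples. Both were low in Control 1, SiglecXII 3 and SiglecXII 4. Galnt4, of the same preference, was at 28.5, 49.99, 52 and 39.6 TPM in Control and 54.5, 46.7, 33.4 and 27.5 TPM in SiglecXII samples, and it shares 7.73% of its windows of 31 bases with Poc1b. Galnt12 was at 37.7, 37.2, 35.9 and 37.4 TPM in Control and 38.9, 37.0, 31.4 and 28.2 TPM in SiglecXII samples. Its Control samples were the most alike of any of these genes, and its SiglecXII samples 3 and 4 were below all of them. Of the other members, Galnt10 was at 32.5 TPM, Galnt1 at 28.1 TPM, Galnt3 at 24.0 TPM, Galnt2 at 11.6 TPM, Galnt5 at 8.75 TPM, Galnt11 at 8.27 TPM, Galnt18 at 1.99 TPM, Galntl6 at 1.98 TPM and Galnt17 at 1.31 TPM in Control. Galnt2 shares 88.9% of its windows of 31 bases with Gm20388 (3.20 TPM in Control), so its level is uncertain. Differences of the 13 genes ran from -0.14 in Galnt12 to 0.22 in Galntl6, 4 above and 9 below 0, with adjusted p from 0.588 to 0.979 in limma. Galnt16, Galnt15, Galnt14, Galnt9 and Galnt13 did not exceed 0.359 TPM in any sample, and Galntl5 was listed at 0 in all 8.

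Fucosyltransferase transcripts came mostly from 3 genes, which held 93.5% to 95.8% of the summed TPM of the 8 Fut genes. The sum was 187 ± 23.6 TPM in Control (SD, n = 4) and 182 ± 39.3 TPM in SiglecXII samples (SD, n = 4). Fut4, an α1,3-fucosyltransferase that makes Lewis x, was at 54.6, 78.2, 76.9 and 68.9 TPM in Control and 86.8, 80.8, 57.6 and 54.3 TPM in SiglecXII samples. Fut2, the secretor enzyme, which puts the α1,2-fucose of the H antigen on mucins of the gut, was at 45.7, 64.7, 58.7 and 48.0 TPM in Control and 71.8, 58.5, 41.6 and 41.4 TPM in SiglecXII samples. For both genes the highest sample was SiglecXII 1 and the lowest was SiglecXII 4. Fut8, which adds the core fucose of N-glycans rather than O-glycans, was at 47.0, 52.1, 57.1 and 52.4 TPM in Control and 58.5, 54.3, 46.2 and 41.5 TPM in SiglecXII samples. The log2 ratio of Fut2 to Fut8 was 0.05 ± 0.19 in Control (SD, n = 4) and 0.06 ± 0.19 in SiglecXII samples (SD, n = 4). That difference of 0.015 had p = 0.914 in a two-sided exact permutation test, which is also its value after adjustment over the 2 ratios. Fut11 (5.33 TPM in Control) and Fut9 (4.46 TPM), which also makes Lewis x, were the other Fut genes tested, and Fut9 had the lowest difference of the 5 at -0.33 (SE 0.184, limma adjusted p = 0.515), which was -0.20 without SiglecXII 4. Fut1, the other H antigen enzyme, lay between 0.381 and 0.881 TPM in all samples, Fut10 at most at 0.228 TPM and Fut7, the sialyl Lewis x enzyme of leukocytes, at most at 0.0984 TPM.

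Of the GlcNAc sulfotransferases, Chst4 was above 1 TPM and Chst5 was not. Chst4 and Chst5 both put sulfate on carbon 6 of GlcNAc. Chst4 ranged from 26.5 to 34.4 TPM in Control and from 25.8 to 36.4 TPM in SiglecXII samples, with a difference of -0.05 (SE 0.130, limma adjusted p = 0.865). Chst5 was between 0.0461 and 0.0880 TPM in all 8 samples and was not tested, and it too shares less than 2% of its windows of 31 bases with any other annotated gene.

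Many members followed the epithelial markers from sample to sample. The Pearson correlation with the mean of the 10 epithelial markers was at least 0.8 over the 8 samples in 14 of 31 members, or 45.2%, beside 25.0% of all genes tested, and these correlations share the samples and the shift of the whole sample. B3gnt3 had the highest (r = 0.96, exact permutation p = 0.000347, adjusted over the 31 members 0.00446; Spearman's rho = 0.93, exact p = 0.00223, adjusted 0.0115). Galnt4 followed (r = 0.96, exact permutation p = 0.000670, adjusted 0.00446; rho = 0.88, exact p = 0.00724, adjusted 0.0249), and then Fut4 (r = 0.95, exact permutation p = 0.000719, adjusted 0.00446; rho = 0.93, exact p = 0.00223, adjusted 0.0115). For r, 15 of the 31 members had an adjusted p of at most 0.05, and for both r and rho 10. No share over all genes was computed for these 2 counts, so they cannot be read as particular to the members. Without Control 2 and SiglecXII 4, the samples farthest from the median of the marker mean, 13 of the 14 were still at 0.8 or more, and with group means removed the 14 lay between 0.850 and 0.980. After median centring, by contrast, only 2 of the 14 remained at 0.8 or more, and the values of the 14 ran from 0.227 to 0.841. The 14 had been picked by r in these same samples, so these checks are not separate support. No share over all genes was computed for them. Gcnt1 had r = 0.03 (exact p = 0.938, adjusted 0.991; rho = 0.02, exact p = 0.977, adjusted 0.977) and B4galnt1 r = -0.03 (exact p = 0.940, adjusted 0.991; rho = 0.19, exact p = 0.665, adjusted 0.736). Without the 2 farthest samples r became 0.66 for Gcnt1 and -0.51 for B4galnt1, and after median centring of all samples 0.49 and -0.75.

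**Figure D5:**
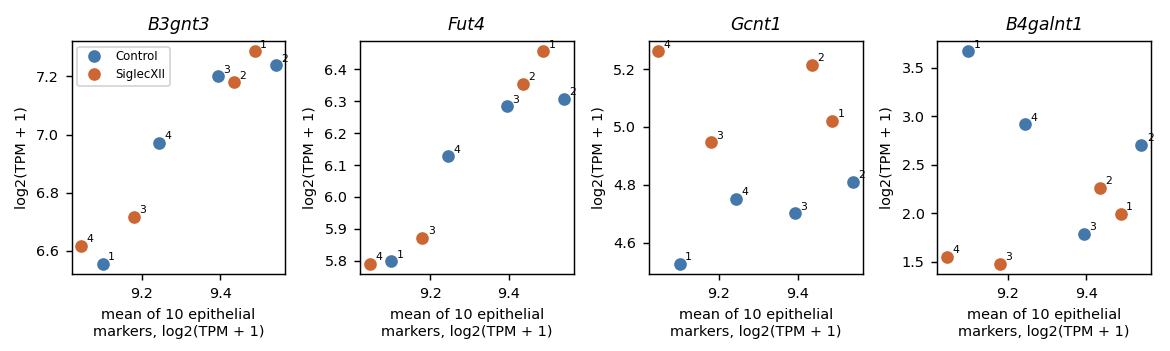
Level of B3gnt3, Fut4, Gcnt1 and B4galnt1 as log2(TPM + 1) (y axes) against the mean of 10 epithelial markers as log2(TPM + 1) (x axes) in the numbered Control (blue) and SiglecXII (orange) samples. B3gnt3 and Fut4 climb with the markers (r = 0.96 and 0.95), whereas the points of Gcnt1 and B4galnt1 do not line up over all 8 samples (r = 0.03 and -0.03).

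Genes that feed or neighbour the pathway gave no call at an adjusted p of 0.05 in limma either, in any of the 6 lists examined. Over all genes tested 8.87% had an unadjusted P of at most 0.05, against which the counts of 0 or 1 in each list are to be read. Among mucin core proteins, 6 were tested, 1 higher and 5 lower, and the highest in Control were Muc13 (1335 TPM) and Muc3 (1042 TPM), both anchored in the apical membrane. Muc4, a further membrane mucin, was at 6.42, 21.5, 9.29 and 11.0 TPM in Control and 7.998, 7.29, 4.65 and 3.21 TPM in SiglecXII samples, with a difference of -0.88 (unadjusted P = 0.0356, limma adjusted p = 0.515). The 12 tested genes of UDP-sugar supply, led by Gfpt1 (200 TPM), the entry enzyme of the hexosamine pathway, had no P of at most 0.05. In GDP-fucose supply, led by Gmds (221 TPM) and the Golgi transporter Slc35c1 (129 TPM), 1 of 6 tested passed unadjusted. This was the salvage enzyme Fpgt, with a difference of -0.36 (unadjusted P = 0.0293, limma adjusted p = 0.515). In sulfate supply, led by the transporter Slc26a2 (184 TPM) and the PAPS synthase Papss1 (124 TPM), 1 of 6 passed unadjusted. It was the PAPS transporter Slc35b3, with a difference of 0.22 (unadjusted P = 0.0477, limma adjusted p = 0.515). Of the other Golgi enzymes, led by B3gnt5 (45.6 TPM) and Gal3st1 (41.8 TPM), 1 of 15 passed unadjusted. It was the α1,3-galactosyltransferase Ggta1, with a difference of -0.94 (unadjusted P = 0.0129, limma adjusted p = 0.515).

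Sialyltransferases of O-glycans had the smallest P of these lists. The highest in Control were St6galnac6 (617 TPM) and St3gal4 (383 TPM), and 1 of 6 tested passed without adjustment. St6galnac2, which adds α2,6-sialic acid to the first GalNAc, was at 21.0, 18.6, 13.3 and 16.8 TPM in Control and 11.6, 12.3, 10.8 and 9.21 TPM in SiglecXII samples. All 4 SiglecXII samples were below all 4 Control samples, as in 4.06% of all genes tested. The difference was -0.61 (SE 0.156, unadjusted P = 0.00354, limma adjusted p = 0.515).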

How the data were processed

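Paired reads from the colon of 4 Control and 4 SiglecXII samples were quantified by the authors with kallisto 0.45.0 on GRCm38, per the labels' processing notes, whereas the paper's methods name a human reference. The authors deposited 1 table of log2(TPM + 1) values with 1 row per gene, in which TPM sums to 1000000 in each sample. The methods also name a count model, but the values used here are log2 TPM, so limma was fitted instead. TPM keeps no depth, so no counting error can be given and the precision is limited by how many samples there are.

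Of rows that repeat a symbol, that of highest mean was taken. Genes that reached a TPM of 1 in 4 or more samples were fitted together in R 4.3.3 by limma 3.58.1 (lmFit and eBayes, trend on, two-sided), with Benjamini-Hochberg adjustment over all 13164 genes, and the fit was tested on simulated data. Python 3.11.15 with scipy 1.17.1 was used for exact permutation tests and matplotlib 3.10.9 for figures. No sample repeated another. Same-numbered samples were not treated as pairs. Gene positions and shared windows of 31 bases are from GENCODE M21, and promoters from RefSeq on GRCm38.p6.

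The members and gene lists were chosen with earlier results of these data known. All members are named. Values in every sample are given for the 14 highest in Control, those past an unadjusted P of 0.05 or with groups that do not overlap, and B3gnt6, C1galt1, Gcnt3, Fut2, Fut8 and B4galnt2. Genes of the pathway lists are named where past that P or among the 2 highest in Control, except 1 gene that is not reported here. The alternatives were a TPM filter of 5 or none, a pseudocount of 0.1, median centring, quantile normalization, the sample number as a block and each sample left out.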

Additional observations from a re-analysis of the deposited data

Results flagged for a closer look

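B3galt5 was low in Control 1, at 6.42 log2(TPM + 1). Its gap to the nearest other Control sample was 0.925 of the range of the 4 Control samples. Over the 66 groups of 4 samples looked at this was the only such sample, where chance alone flags about 1 in 20 groups, or 3.3.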

How the results depend on the processing

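The number of members past an adjusted p of 0.05 in limma was 0 under every alternative run, each of which is named here or in the methods. The number at an unadjusted P of at most 0.05 was 2, and became 1 with a TPM filter of 5, 6 with median centring (Gcnt1, C1galt1c1, C1galt1, Gcnt3, Galnt1 and Galnt5, all higher) and 4 with quantile normalization, while over all genes it was 8.87% on the deposited scale, 7.41% with that filter, 10.8% with median centring and 8.45% with quantile normalization. These shares count genes in both directions, and no share of higher genes alone was computed with median centring. The number of members with such a P was 1 to 3 with 1 sample left out, and 1 (Gcnt1) without Control 1, Control 4 or SiglecXII 3. The share over all genes moved as well, from 3.70% without SiglecXII 3 to 18.1% without SiglecXII 1, where 3 members had such a P. Groups did not overlap in 2 members, in 6 with median centring, and in 2 to 4 with 1 sample left out. With median centring 5.74% of all genes lay above Control in every SiglecXII sample, beside 1.05% on the deposited scale. The 4 were found without Control 1, where 10.9% of all genes lay below Control, as did the added Fut9 and Fut11. The median difference of -0.05 became 0.17 with median centring, where that of all genes was 0.06, and -0.12 to 0.06 with 1 sample left out. Among 382 differences of 24 members under the alternatives, 70 changed sign, in 17 members. The ratio of B3gnt6 to C1galt1 differed by -0.24 to 0.10 and that of Fut2 to Fut8 by -0.06 to 0.10 with 1 sample left out. Without Control 3, B4galnt2 moved from rank 11 to rank 8 in Control, the only member to move by more than 2 places. The causes were not tested.

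With the sample number as a replicate block, 3 members had an unadjusted P of at most 0.05 (Gcnt1, B4galnt1 and B4galnt2) and 0 passed the adjusted p in limma. Of all genes tested 7.18% had such an unadjusted P in that fit. Deviations of same-numbered samples correlated at -0.16, -0.20, 0.10 and -0.00, and those of differently numbered samples at -0.17 to 0.26. So few values cannot decide whether same-numbered samples share more than a number.

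Chosen after the data were seen, centring on the epithelial markers gave 4 members at an unadjusted P of at most 0.05 (Gcnt1 and C1galt1c1 higher, B3gnt7 and B4galnt1 lower), where 13.9% of all genes had such a P. Leaving out SiglecXII 3 and 4 gave 2 such members (Gcnt1 and C1galt1c1), where 2.71% of all genes had such a P. Groups then did not overlap in 5 members, all higher, where 6.26% of all genes lay above and 6.25% below. Of the member differences 24 were above and 7 below 0, where the median difference of all genes tested was 0.004.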
